A study of Mus musculus with 12 samples.

Results

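The replication-dependent histone genes of mouse are the genes with the symbols Hist1h, Hist2h, Hist3h and Hist4h, which encode the linker histone H1 and the core histones H2A, H2B, H3 and H4. They were taken as every symbol of that form with at least 3 reads summed over the libraries of a set. Of 71 such symbols, 64 passed in at least 1 set, among 34906 gene symbols in all. They comprised 6 H1, 16 H2A, 17 H2B, 13 H3 and 12 H4 genes, and by symbol belonged to Hist1 on chromosome 13 (51 genes), Hist2 on chromosome 3 (9 genes), Hist3 on chromosome 11 (3 genes) and Hist4 on chromosome 6 (Hist4h4). Of these, Hist1h2aj, Hist2h3c2 and Hist3h2bb-ps are annotated as pseudogenes, and Hist2h3c2-ps is a pseudogene by its symbol. They are counted here in the class that their symbol names. Of the 51 Hist1 genes, 50 lay between 21807632 and 24026720 on chromosome 13 (NCBIM37), and Hist1h2al lay apart at 51298057 to 51298434. RNA was sequenced from whole lung of B6 mice aged 6 to 8 weeks, 14 to 16 h after the mice were treated with phosphate-buffered saline (PBS) or with D.f. extract, D.f. being the house dust mite species Dermatophagoides farinae. The 12 libraries formed 2 sets of 6. In the RNase III set, all mice were wild type and received PBS (libraries 1 and 2), D.f. extract (3 and 4) or D.f. extract with RNase III, an enzyme that cuts double-stranded RNA (5 and 6). In the knockout set, wild-type mice received PBS (library 1) or D.f. extract (3 and 4), and double-knockout mice received PBS (2) or D.f. extract (5 and 6). The double knockout (TLR3MAVS in the labels) lacks Tlr3, which senses double-stranded RNA in endosomes, and Mavs, through which sensors of RNA in the cytosol signal. The labels do not say that libraries of a group came from separate mice, so the spread that p-values measure here may be technical.

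As background, these genes supply most histone protein in S phase, when new DNA is packaged into nucleosomes, and their messages are at their highest in dividing cells. Their mRNA is the only metazoan mRNA known to lack a poly(A) tail as a rule. It ends just after a stem-loop that is bound by the protein Slbp and cut by a complex with the U7 small nuclear RNA. Total RNA libraries, which were used here, can hold such transcripts. Some genes of the family also give longer, polyadenylated messages in cells that do not divide, and the variant histones H3.3 (H3f3a, H3f3b), H2A.Z (H2afz) and H1.0 (H1f0) are made outside S phase from ordinary polyadenylated mRNA.

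The stem-loops are shown first because they are the feature that sets this mRNA apart. In the NCBIM37 genome (mm9), a window of 200 bases after the annotated stop codon could be read for 60 of the genes, and 55 of them (91.7%) held an exact match to the stem-loop pattern on the coding strand, which has 6 paired bases on each side of a loop of 4. With 1 mismatch allowed the count was 56 (93.3%), against 32 of 21896 other protein-coding genes (0.146%). The genes named above as pseudogenes were not among the 60. The stem began 21 to 55 bases after the stop codon, with a median of 30. One stem and loop was shared by 32 genes of the classes H1, H2A, H2B and H3, a second differed in the loop and was found in 9 genes, and another stem was found only in class H4 among the genes read, with the loop tttc in 7 genes, tttt in 2 and tctc in 1. An example of each, and of the rarer forms in Hist1h4b, Hist2h4 and Hist2h2ac, is given 5′ to 3′ with the stem in capitals and the loop and flanks in lower case.
Hist1h1c (H1, chr13:23831376-23831401, plus strand): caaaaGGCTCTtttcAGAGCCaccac
Hist1h3e (H3, chr13:23653767-23653792, minus strand): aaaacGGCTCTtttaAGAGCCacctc
Hist1h4d (H4, chr13:23673814-23673839, plus strand): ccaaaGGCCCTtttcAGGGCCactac
Hist1h4b (H4, chr13:23849230-23849255, plus strand): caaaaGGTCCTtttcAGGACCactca
Hist2h4 (H4, chr3:96066857-96066882, minus strand): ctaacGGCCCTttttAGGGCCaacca
Hist2h2ac (H2A, chr3:96024336-96024361, minus strand): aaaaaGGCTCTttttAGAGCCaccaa

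A stem-loop was not found after the annotated stop codon of Hist1h2al, Hist1h2bp, Hist2h2bb and Hist2h2be. For Hist1h2bp, 1 match lay elsewhere in its span. Hist2h2be and Hist1h2al held no match in the whole gene span with 200 bases on either side. The annotated Hist2h2bb gene (ENSMUSG00000050936.3, chromosome 3, 96073644 to 96082924, plus strand) has 2 exons, and its span held 1 match at 96074094 to 96074109 before the annotated stop codon. Hist2h2bb was also the one histone gene whose level passed the test in a comparison.

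Promoters were read from RefSeq (GRCm38.p6) for 55 of the 64 genes, as 250 bases before and 50 bases after the start, and were searched on both strands for 3 short motifs known from histone promoters. The sequence CCAAT, bound by the factor NF-Y, was found in 85.5% of them, against 37.9% of 27025 promoters of the same length. It was in every H1, H2A, H2B and H3 promoter and in 3 of 11 H4 promoters. The sequence TATAAA was found in 60.0% of the histone promoters and in 14.2% of all. The octamer ATTTGCAT, bound by Pou2f1, was found in 23.6%, namely in 7 of 14 H2A and 6 of 14 H2B promoters and in no other class, against 1.75% of all promoters. H2A and H2B genes that stand head to head share much of the sequence searched. A motif there can be counted for both partners, so the H2A and H2B counts are not independent. A match describes the sequence and was not tested as a binding site. The 250 bases before the start are shown for Hist2h2bb and for Hist1h2bb, an H2B gene that holds all 3 motifs and ranked among the 12 most abundant genes of the RNase III set, with motif matches on either strand in capitals.
Hist2h2bb (GRCm38.p6, chr3:96269450-96269699, plus strand): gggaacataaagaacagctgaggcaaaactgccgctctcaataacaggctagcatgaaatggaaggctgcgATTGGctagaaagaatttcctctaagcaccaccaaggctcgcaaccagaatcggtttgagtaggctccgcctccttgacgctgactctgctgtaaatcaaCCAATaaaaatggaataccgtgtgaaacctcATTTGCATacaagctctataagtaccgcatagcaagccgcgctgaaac
Hist1h2bb (GRCm38.p6, chr13:23746484-23746733, plus strand): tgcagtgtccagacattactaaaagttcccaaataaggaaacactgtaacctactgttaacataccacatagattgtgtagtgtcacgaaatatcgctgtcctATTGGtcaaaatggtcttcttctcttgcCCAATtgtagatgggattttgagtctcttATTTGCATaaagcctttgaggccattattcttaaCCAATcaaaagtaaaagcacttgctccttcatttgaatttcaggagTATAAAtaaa
The octamer began 48 bases before the start of Hist2h2bb and 90 bases before that of Hist1h2bb, which also held TATAAA at 10 bases before the start.

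Libraries of the RNase III set held 17754518 to 25714074 reads assigned to genes, and those of the knockout set 15687699 to 20945618. Levels are in CPM, reads per 1e6 assigned reads after scaling. Where no read is seen, a gene may still be at up to 3 reads, or 0.117 to 0.191 CPM, and such limits cover counting error only. In the 3 double-knockout libraries Tlr3 was at 14.8 CPM or less, against 42.4 to 156 CPM in the 3 wild-type libraries of that set, and Mavs was at 3.09, 2.66 and 2.35 against 32.2 to 36.4 CPM. Both genes were thus lower in each double-knockout library than in any wild-type library of the set. The lung markers Sftpc, Scgb1a1, Ager and Cdh5 were present at 688 CPM or more in all 12 libraries. Heart muscle markers were also present and varied: the summed level of 10 such genes was 153 to 1445 CPM in libraries of the RNase III set, with PBS library 2 the highest, and 108 to 822 CPM in those of the knockout set.

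All 64 genes together took a small share of the assigned reads. Their summed level was 437 to 688 CPM in the RNase III set (62 genes) and 402 to 494 CPM in the knockout set (61 genes). A few genes held much of it, the top 4 being Hist1h4d, Hist1h1c, Hist1h1e and Hist1h2bc in both sets, with 43.2% (RNase III set) and 46.6% (knockout set) of the summed mean CPM. The top 10 held 66.2% and 72.5%. At the other end, 13 genes (RNase III set) and 17 genes (knockout set) were under 1 CPM on average. The testis linker histone gene Hist1h1t was among them with 12 and 10 reads in all, and Hist1h2ba, the testis H2B gene, with 4 and 11.

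**Figure D1:**
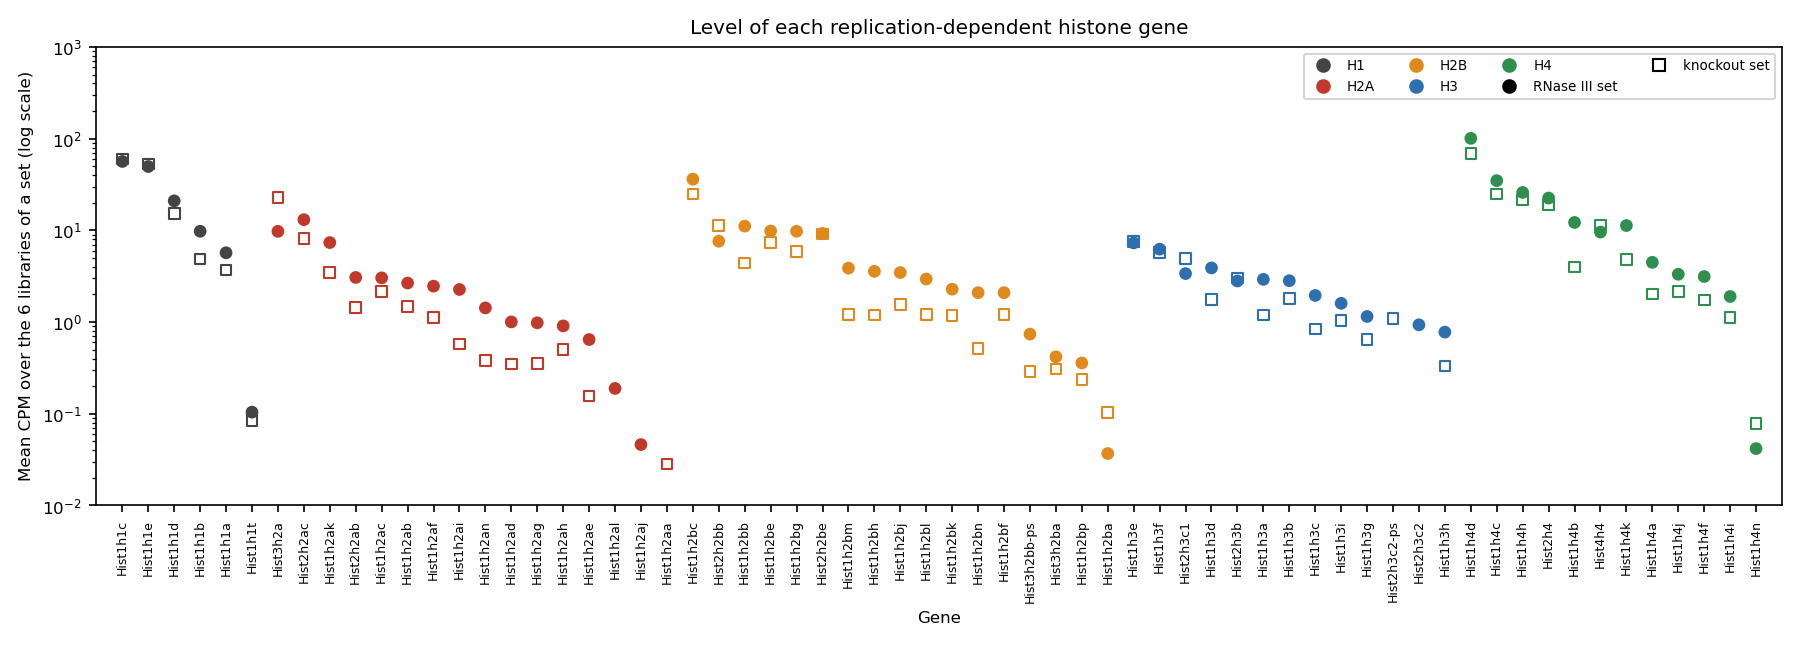
Mean CPM of each of the 64 genes over the 6 libraries of a set (y, log scale), grouped by histone class (x), with filled circles for the RNase III set and open squares for the knockout set. H4 has the highest single gene, Hist1h4d at 101 and 68.7 CPM, and 2 of the H1 genes lie near 50 CPM in both sets.

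Hist1h4d, on chromosome 13 from 23673467 to 23673859 (ENSMUSG00000061482.6, 1 exon, plus strand), was the most abundant. It was at 100, 93.4, 118, 77.5, 121 and 95.7 CPM in libraries 1 to 6 of the RNase III set. In the knockout set it was at 54.2 CPM in wild-type PBS, 75.5 and 73.5 in wild-type D.f., 75.3 in knockout PBS and 71.8 and 61.8 in knockout D.f. The wild-type PBS library was the lowest of the second set, while groups overlapped in the first. Per kilobase of annotated exon, Hist1h4d reached 257 and 175 CPM, ahead of the next H4 genes, Hist1h4c (88.3 and 63.1) and Hist1h4h (55.2 and 45.7).

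Among the H1 genes, which encode the linker histone that binds DNA between nucleosomes, Hist1h1e and Hist1h1c led with 66.5 and 36.2 CPM per kilobase in the RNase III set and 71.0 and 38.6 in the knockout set. Hist1h2bc led the H2B genes at 49.2 and 33.9 CPM per kilobase, and Hist2h2ac the H2A genes at 25.2 and 15.7. H3 genes were low throughout. The highest of them, Hist1h3e, was at 8.74 and 9.11 CPM per kilobase, below the leading gene of every other class. These are levels of reads that could be placed, and the genes differed in how many of their reads can be placed.

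The core histone genes are near-copies of each other, and reads with more than 1 alignment (36.8% to 44.6% of each library's reads) were set aside in the deposited tables. For each gene, every 100-base window of its exons was searched in the NCBIM37 genome. No window was unique for Hist1h2ao, Hist1h2ap, Hist1h2bq, Hist1h2br, Hist2h2aa1 and Hist2h2aa2, and these symbols had 0 or 1 read in either set. For Hist1h4n 10.9% of windows were unique, and it had 5 and 9 reads. By contrast, all windows of Hist1h4d, Hist2h4, Hist4h4, Hist2h2bb and Hist2h2be were unique, though with up to 2 mismatches allowed the share for Hist1h4d fell to 46.9%. Levels of the genes with few unique windows, such as Hist1h2ag (20.7%), Hist1h2an (16.7%) and Hist2h3b (22.9%), are therefore uncertain. A given gene keeps the same windows in all libraries, so a comparison between libraries is less affected than one between genes.

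Some gene pairs overlapped or were listed in 1 set only. Hist1h2aj (6 reads), Hist1h2al (21 reads) and Hist2h3c2 (118 reads) were listed only in the RNase III set, and Hist2h3c2-ps (120 reads) only in the knockout set. The symbols Hist2h3c2 and Hist2h3c2-ps may name the same gene, which would then be counted under both. Whether they do was not tested. Of the 21 reads of Hist1h2al, nearly all were in PBS library 1, at 0.995 CPM, while the other libraries were at 0 to 0.0535 CPM. Hist1h2aj overlaps Hist1h2bm on the other strand, so reads of that pair cannot be told apart without the strand setting of the counting. Hist2h3c1 and Hist2h2aa1 overlap on the same strand, where strand does not separate their reads. Hist3h2a likewise overlaps Trim17 on the same strand. Just inside the minimum lay Hist1h2aa, with 3 reads in the knockout set, and just outside it the same gene with 2 reads in the RNase III set.

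Many H2A and H2B genes stand head to head and share the stretch between their starts. Among the genes studied, 10 such pairs (RNase III set) and 11 (knockout set) had starts at most 500 bases apart, with gaps of 173 to 306 bases. Per kilobase the H2B partner was the higher in 6 of 10 and 7 of 11 pairs. The H2B partner of Hist3h2a is the pseudogene Hist3h2bb-ps. Hist1h2bc exceeded Hist1h2ac by 49.2 to 1.22 CPM per kilobase in the RNase III set, and Hist1h2bg exceeded Hist1h2ae by 15.8 to 0.916. The order was the other way in Hist2h2ac and Hist2h2be (25.2 and 3.54) and in Hist1h2ak and Hist1h2bn (14.4 and 5.498). With up to 2 mismatches, 37.9% of the windows of Hist1h2ak but only 3.19% of those of Hist1h2bn were unique, and for Hist1h2bc and Hist1h2ac the shares were 46.8% and 87.4%. The part of placement in the order of a pair was not tested.

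Levels differed between libraries of the same group, and in the RNase III set the summed level differed more between its 2 PBS libraries than between any of its group means, which were 563 ± 178 CPM in PBS, 538 ± 73.9 in D.f. and 590 ± 120 in D.f. with RNase III (mean ± SD, n = 2 each). PBS library 1 had a summed level of 688 CPM and PBS library 2 of 437 CPM, the highest and lowest of the set, with D.f. at 590 and 485 and D.f. with RNase III at 675 and 505. Of the 56 genes with enough reads for a test, 54 were higher in PBS library 1 than in PBS library 2, with a median ratio of 1.80, while 50.7% of 17165 genes tested were higher there. Between the D.f. with RNase III libraries, 53 of 56 were higher in library 5 than in library 6, with a median ratio of 1.34, and between the D.f. libraries 39 of 56 were higher in library 3. Ratios were taken after adding 0.5 CPM.

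The same libraries differed in genes of cell division. All 29 genes of a mitosis list were higher in PBS library 1 than in PBS library 2 (median ratio 1.95), and all 29 were higher in D.f. with RNase III library 5 than in library 6 (1.26). Only 4 of 29 were higher in D.f. library 3 than in library 4, where most histone genes were higher in library 3. Of 34 DNA replication genes, 28 were higher in PBS library 1 than in PBS library 2 (median ratio 1.27). Only 19 of 34 were higher in D.f. with RNase III library 5 than in library 6 (1.02), where most histone genes were higher in library 5. In D.f. library 3, 15 of 34 were higher than in library 4 (0.986). The 2 PBS libraries also differed in markers of tissues and cells. Heart muscle markers were higher in PBS library 2 in 10 of 10 genes, red cell and platelet markers in 10 of 10 and fat markers in 6 of the 7 tested. Lung markers were higher in PBS library 1 in only 1 of 9 genes, and neutrophil markers in 1 of 8. T and NK cell markers were higher in PBS library 1 in 8 of 9 genes, and B cell markers in 5 of 7. The summed level of the fat markers was 179 CPM in PBS library 2 and 13.2 CPM in PBS library 1. The part of these tissues and cells in the level of the histone genes was not tested. In bulk tissue fewer dividing cells and less histone mRNA per cell cannot be told apart.

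**Figure D2:**
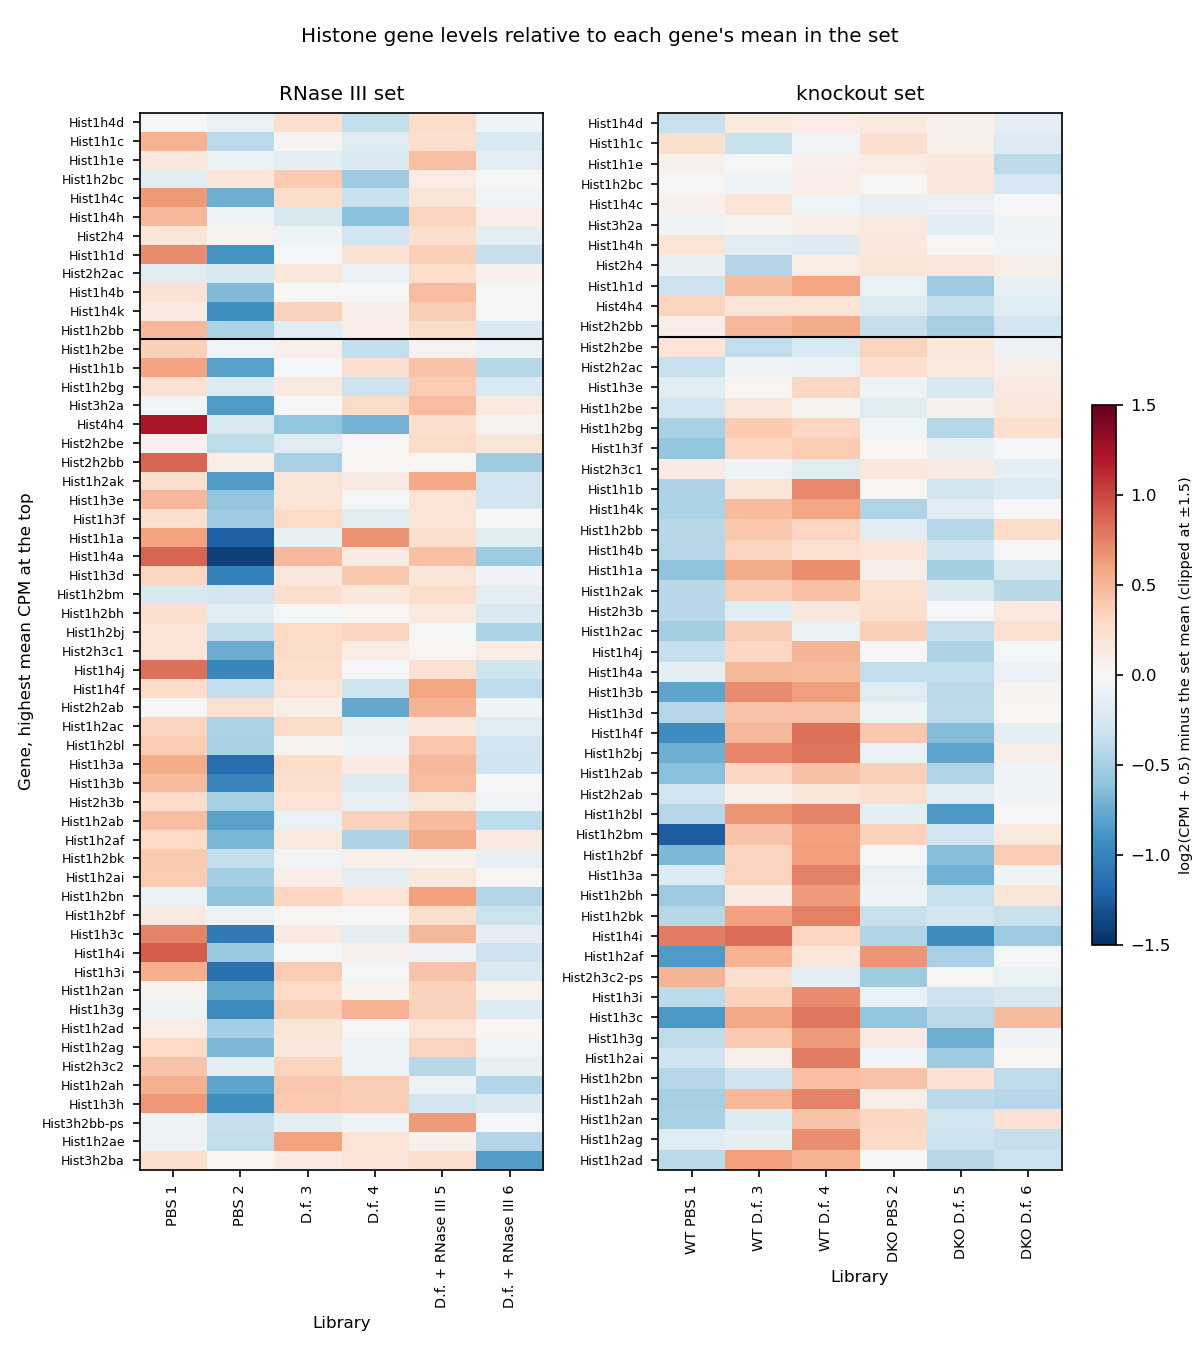
Level of each tested gene in each library as log2(CPM + 0.5) minus the gene's mean in its set (colour, red high and blue low, clipped at 1.5 either way), with genes (y) in order of mean CPM and libraries (x) by group; the black line separates genes at 10 CPM or more. In the RNase III set PBS library 2 is low for most genes, and in the knockout set the wild-type PBS library is low and the wild-type D.f. libraries are high, mainly below the line.

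Genes of low and high level behaved differently. A division at a mean of 10 CPM, chosen after the values were seen, left 12 genes (RNase III set) and 11 genes (knockout set) above it, and 50 below it in each. In the RNase III set the summed level of the low genes was 224 and 107 CPM in PBS, 172 and 162 in D.f. and 202 and 142 in D.f. with RNase III. The high genes summed to 464 and 330, 418 and 323, and 474 and 363 CPM. The highest library was thus 2.10 times the lowest for the low genes and 1.47 times for the high genes. In the knockout set the low genes summed to 82.0 CPM in wild-type PBS, 131 and 141 in wild-type D.f., 112 in knockout PBS and 89.6 and 108 in knockout D.f. Both wild-type D.f. libraries lay above the other libraries. The high genes, at 294 to 354 CPM, showed no such order.

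**Figure D3:**
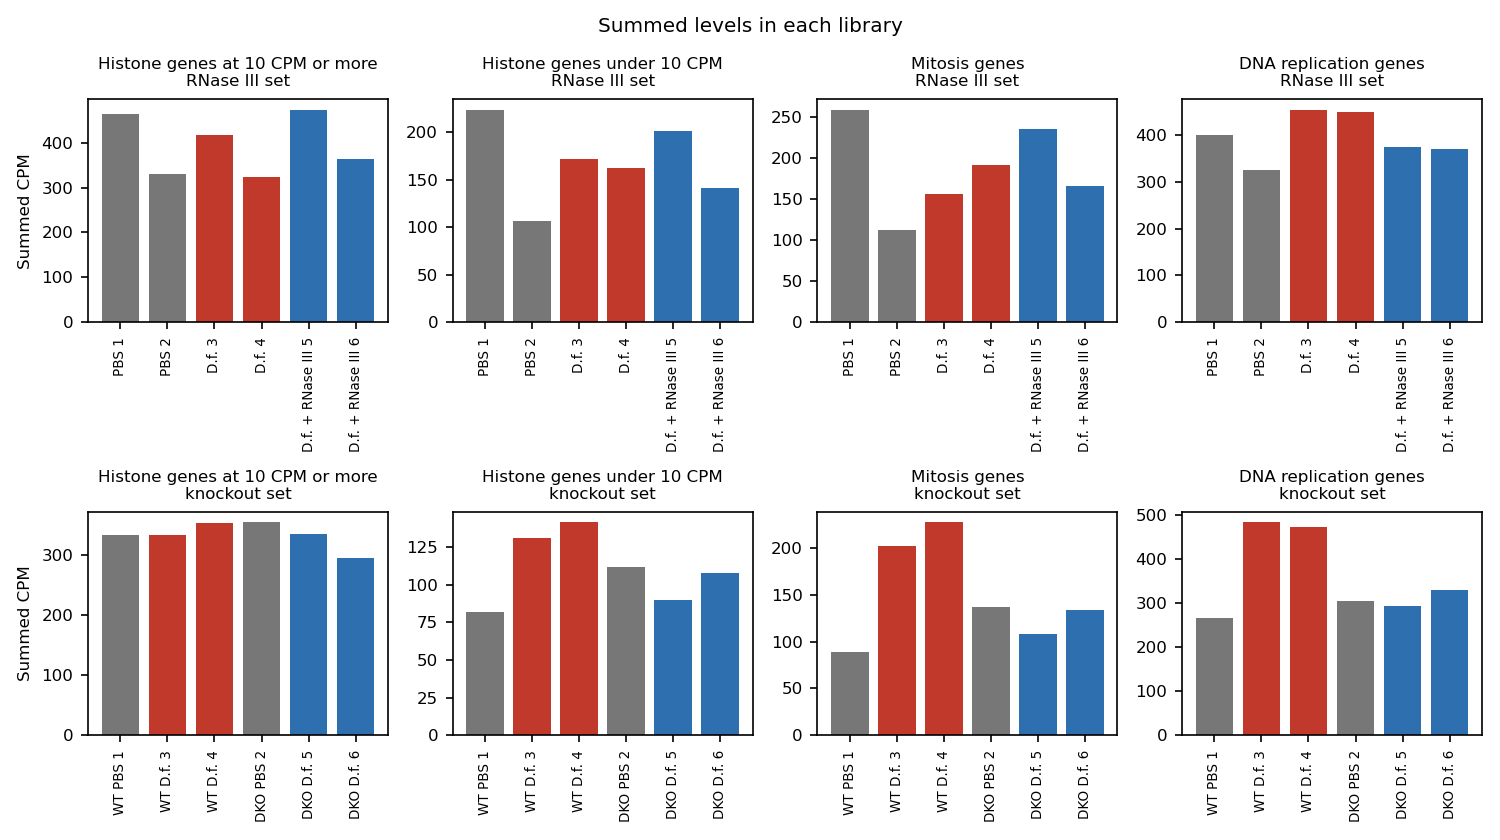
Summed CPM (y) in each library (x) for the histone genes at 10 CPM or more and under 10 CPM, and for the lists of 29 mitosis and 34 DNA replication genes. Each bar is 1 library, with PBS in grey, D.f. extract in wild type in red, and D.f. with RNase III (upper row) or D.f. in the double knockout (lower row) in blue. In the lower row the histone genes under 10 CPM, the mitosis genes and the replication genes are each highest in the 2 wild-type D.f. libraries.

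D.f. extract against PBS in the RNase III set asks which genes respond to the mite extract. None of the 56 tested histone genes passed an adjusted p of 0.05 in edgeR's quasi-likelihood test, while 11.0% of all genes did. At an unadjusted p under 0.05 there were 1 higher and 2 lower, against 13.3% and 12.4% of all genes. DESeq2 called 1 lower, Hist4h4 (1.79%, against 6.27% of all genes). The median log2 fold change of the histone genes was 0.07, and that of all genes was −0.01. T and NK cell markers were positive in 9 of 9 genes tested (median 1.13), with 5 called higher (55.6%, against 6.51% of all genes). Neutrophil markers were positive in 8 of 8 (2 called, 25%) and B cell markers in 7 of 7 (1 called, 14.3%). Heart muscle markers were positive in 6 of 10, with no call. The part of these cells in the histone levels was not tested. Hist4h4, an H4 gene that lies outside the large clusters, was at 20.7 and 7.24 CPM in PBS, 5.47 and 5.01 in D.f. and 10.2 and 8.88 in D.f. with RNase III. Both D.f. libraries lay below both PBS libraries. Its log2 fold change was −1.41 ± 0.44 (SE) with an edgeR adjusted p of 0.091, and with DESeq2 the adjusted p was 0.012. Hist4h4 was called lower by edgeR when PBS library 2 was left out (adjusted p 0.000577) and with all 12 libraries in 1 fit (0.041), and its log2 fold change was −0.46 without PBS library 1 (adjusted p 0.186).

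Hist1h4h, another H4 gene, followed a like order. It was at 35.7 and 23.99 CPM in PBS, 21.2 and 16.0 in D.f. and 31.7 and 27.0 in D.f. with RNase III. The D.f. libraries were below the others in each case, with a log2 fold change against PBS of −0.68 ± 0.23 and an edgeR adjusted p of 0.110. Without PBS library 1, 11 of 56 histone genes (19.6%) were called higher in D.f., as were 8.88% of all genes, and the median was 0.72. Without PBS library 2, 5 of 58 (8.62%) were called lower, as were 7.88% of all genes, and the median was −0.34. The sign of the median thus turned with the PBS library that was kept.

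D.f. extract with RNase III was set against untreated D.f. extract to ask which responses need the double-stranded RNA of the extract. No histone gene was called in edgeR, against 7.26% of all genes, 1 (Hist1h4h, higher) had an unadjusted p under 0.05, against 22.2% of all genes, and DESeq2 called none. The median log2 fold change was 0.02. T and NK cell markers were negative in 9 of 9 genes tested, with 8 called lower (88.9%, against 4.85% of all genes). B cell markers were negative in 7 of 7 (3 called, 42.9%) and neutrophil markers in 8 of 8 (1 called, 12.5%). Heart muscle markers were negative in 10 of 10 with no call, all without overlap, as in 30.7% of all genes. The part of these cells in the histone levels was not tested. Hist1h4h differed by 0.66 ± 0.23 with an edgeR adjusted p of 0.142, and Hist4h4 by 0.87 ± 0.44 with 0.306. Both comparisons share the D.f. libraries. When only the 4 libraries of these groups were fitted, these 2 genes were called, with adjusted p of 0.032 and 0.016, which is 3.57% of the 56 histone genes against 7.21% of all genes called higher in that fit. Against PBS, D.f. extract with RNase III also gave no call, with 0.00583% of all genes called, 1 histone gene (Hist3h2a, higher) at an unadjusted p under 0.05, against 4.86% of all genes, and none called by DESeq2. The median was 0.12, and it was 0.71 without PBS library 1 and −0.30 without PBS library 2.

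In the knockout set, wild-type lung with D.f. extract differed more from its PBS library. Of 52 histone genes tested, 43 had a positive log2 fold change, with a median of 0.94 against 0.01 for all genes, of which 50.8% were positive. In 41 of the 52 genes both D.f. libraries were above the PBS library, as in 42.4% of all genes, and in 6 both were below, as in 40.8% of all genes. None passed an adjusted p of 0.05 in edgeR, where 1.52% of all genes did. At an unadjusted p under 0.05 there were 21 higher and 2 lower, against 10.6% and 6.52% of all genes, and DESeq2 called none. PBS is 1 library here, so each of these genes is compared with the same single library, and the counts are not independent. The smaller fits given next had fewer residual degrees of freedom than the full fit, so their counts of calls are less certain. In the fit of the 3 wild-type libraries, the spread is measured between the 2 D.f. libraries alone. With only the 3 wild-type libraries in the fit, edgeR called 21 higher (40.4%) and 1 lower, against 12.5% and 7.89% of all genes. It called 21 higher when knockout D.f. library 5 was left out and 20 (38.5%) when library 6 was, against 12.6% and 11.0% of all genes. Without either wild-type D.f. library it called no gene at all. Markers of other cells differed too, and none of those named here was called. T and NK cell markers were positive in 9 of 9 genes tested (median log2 fold change 1.26), neutrophil markers in 8 of 9 (1.501) and B cell markers in 4 of 7 (0.10), while fat markers were negative in 6 of 6 (−0.91) and heart muscle markers in 9 of 9 (−0.56). The summed level of the T and NK cell markers was 22.4 CPM in wild-type PBS and 60.1 and 56.9 CPM in wild-type D.f. The summed level of the heart muscle markers, of which at most 1 was at 0 in a library of the set, was 822 CPM in wild-type PBS and 449 and 679 CPM in wild-type D.f. The part of these cells in the differences was not tested.

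Genes of low and high level are described here, and Hist1h2bm, Hist1h3c, Hist1h2bj, Hist1h3b and Hist1h1a were named after their values were seen. Hist1h2bm, an H2B gene, was at 0.171 CPM in wild-type PBS, 1.63 and 1.92 in wild-type D.f., 1.51 in knockout PBS and 0.798 and 1.25 in knockout D.f. The wild-type PBS library, with 3 reads, was the lowest of the set, and its level is within the limit that a count of 0 allows. Its log2 fold change of 3.32 ± 0.65 was the highest of the 52 genes, with an edgeR adjusted p of 0.0902. Hist1h3c (H3) also had 3 reads in wild-type PBS, and was at 1.33 and 1.62 CPM in wild-type D.f. Hist1h2bj (H2B), at 0.626 CPM in PBS and 2.61 and 2.76 in D.f., had a log2 fold change of 2.09 ± 0.65 with an edgeR adjusted p of 0.204. Hist1h3b (H3), at 0.740 CPM in PBS and 3.01 and 2.82 in D.f., had 1.97 ± 0.45 with 0.122. In all 3 genes both D.f. libraries lay above the PBS library. Hist1h1a was at 2.11 CPM in wild-type PBS, 5.33 and 5.94 in wild-type D.f., 3.72 in knockout PBS and 2.29 and 2.85 in knockout D.f., and here the wild-type D.f. libraries stood apart. Its log2 fold change was 1.42 ± 0.30 with an edgeR adjusted p of 0.108.

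Hist1h1d, which encodes the linker histone H1.3, was at 11.7 CPM in wild-type PBS and 20.7 and 22.5 in wild-type D.f. In the knockout it was at 13.7 in PBS and 9.89 and 13.6 in D.f. The log2 fold change in wild type was 0.88 ± 0.23 with an edgeR adjusted p of 0.160. Hist1h3f (H3) had 1.02 ± 0.23 with 0.116, and Hist1h4k (H4) had 1.13 ± 0.25 with 0.118. Hist1h1c, the most abundant H1 gene, went the other way, from 70.4 CPM in PBS to 47.1 and 57.7 in D.f., a log2 fold change of −0.43 ± 0.18 with an edgeR adjusted p of 0.310. These 2 linker histone genes thus had opposite signs, and neither passed the test.

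By class, summed H3 levels in the knockout set were 23.6 CPM in wild-type PBS, 34.3 and 38.1 in wild-type D.f., 28.9 in knockout PBS and 25.4 and 29.9 in knockout D.f. H2B levels were 64.8, then 80.3 and 85.5, then 69.2, then 65.6 and 66.9 CPM in the same order. In both classes the wild-type D.f. libraries were the highest. H2A levels were 35.1, then 46.6 and 48.7, then 49.9, then 37.5 and 41.0 CPM, and here knockout PBS was the highest. Summed H4 levels, carried by Hist1h4d, were 148 CPM in wild-type PBS, 172 and 172 in wild-type D.f., 167 in knockout PBS and 158 and 151 in knockout D.f. Summed H1 levels, at 113 to 150 CPM, had no such order.

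In the double knockout, D.f. extract against PBS gave no call in edgeR, for histone genes or for any other gene (0% of all genes). One histone gene, Hist1h2af, had an unadjusted p under 0.05 (5.54% of all genes), and DESeq2 called no histone gene. The median log2 fold change of the 52 genes was −0.23, with 40 negative, against 0.01 for all genes, of which 48.3% were negative. PBS was again 1 library.

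Knockout against wild type, both with D.f. extract, asks how levels under the extract differ between the genotypes. It includes any difference already present with PBS. Of 52 genes, 44 were lower in the knockout, with a median log2 fold change of −0.68 against 0.01 for all genes, of which 49.0% were lower. In 34 of the 52 both knockout libraries were below both wild-type libraries, as in 25.6% of all genes. At an unadjusted p under 0.05 there were 20 lower and 0 higher, against 10.4% and 7.85% of all genes. One gene, Hist2h2bb, passed the adjusted threshold, against 2.01% of all genes called lower. DESeq2 called it and Hist1h1d lower (3.85%, against 3.485% of all genes). Without knockout D.f. library 5 there were 8 called lower (15.4%) against 11.7% of all genes, and without library 6 there were 15 (28.8%) against 9.34%. Without wild-type D.f. library 3 or 4 there were none, against 0.046% and 0.111% of all genes. The heart muscle markers summed to 449 and 679 CPM in the wild-type and 108 and 189 CPM in the knockout libraries with D.f. extract. Of these, 9 of 9 genes tested were negative and 3 were called lower (33.3%, against 2.01% of all genes). T and NK cell markers were negative in 9 of 9 (median −0.86, 8 without overlap) and B cell markers in 7 of 7 (−0.36), with no call in either list. Neutrophil markers were positive in 8 of 9 (0.85, no call). The T and NK cell markers summed to 60.1 and 56.9 CPM in the wild-type and 33.9 and 21.2 CPM in the knockout libraries. The part of these cells in the differences was not tested.

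**Figure D4:**
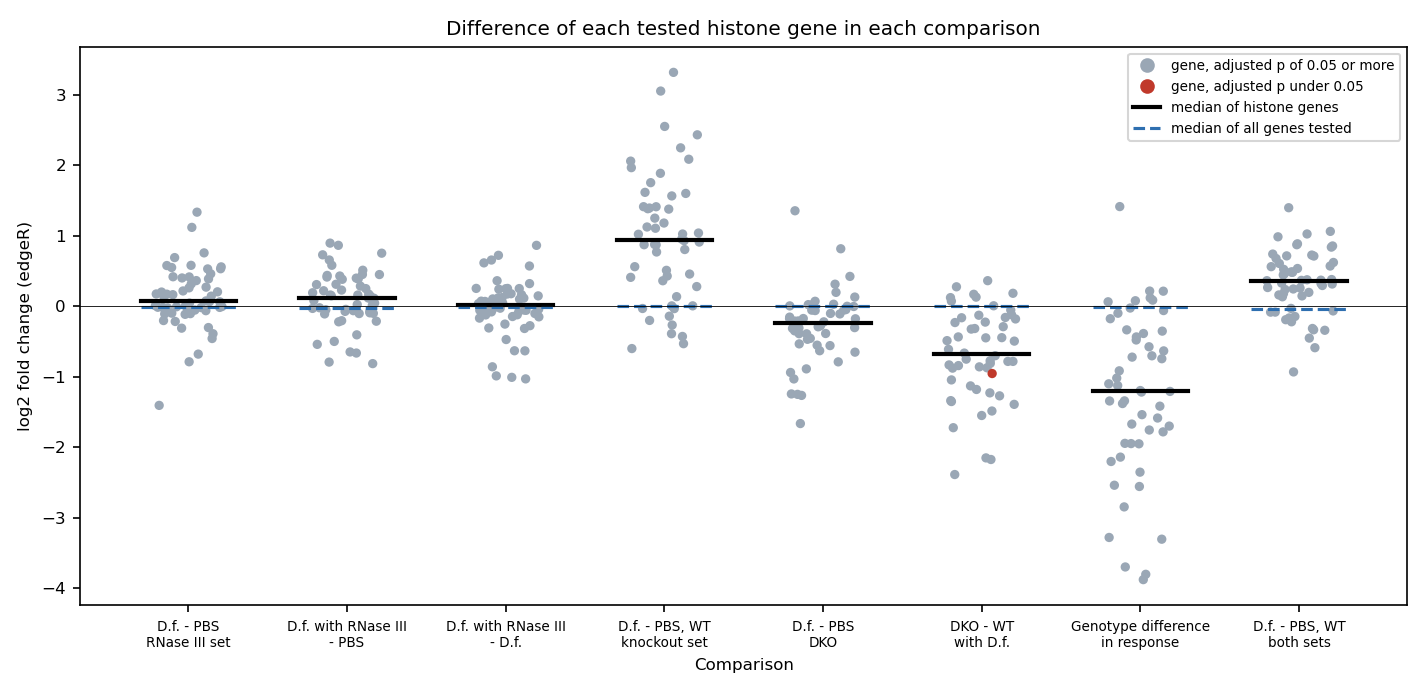
Log2 fold change (y, edgeR) of each tested histone gene in each of 8 comparisons (x), with red for the gene that passed an adjusted p of 0.05, a black bar for the median of the histone genes and a dashed blue bar for the median of all genes tested. The median is 0.94 for D.f. against PBS in wild type of the knockout set, −0.68 for the double knockout against wild type under D.f. extract, and 0.02 to 0.12 in the RNase III set.

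Hist2h2bb, an H2B gene of the Hist2 cluster, was at 15.3 and 16.1 CPM in wild-type D.f. and at 7.50 and 8.75 CPM in knockout D.f., or 15.7 ± 0.57 and 8.12 ± 0.88 CPM (mean ± SD, n = 2 each). The PBS libraries were at 11.7 CPM in wild type and 8.39 CPM in the knockout. All 3 knockout libraries were thus below all 3 wild-type libraries, the PBS pair included. The log2 fold change with D.f. was −0.95 ± 0.15 (SE), with an edgeR adjusted p of 0.0451. Over 11 alternatives the adjusted p ranged from 0.000611 to 0.412. The call was lost without either wild-type D.f. library (0.412 and 0.363) and with all 12 libraries in 1 fit (0.159), and its direction held throughout. In the RNase III set the same gene was at 13.5 and 7.74 CPM in PBS, 4.997 and 7.32 in D.f. and 7.27 and 4.82 in D.f. with RNase III, with D.f. below PBS. The log2 fold change of D.f. against PBS there was −0.79 ± 0.35 with an edgeR adjusted p of 0.209, while in wild type of the knockout set D.f. was above PBS. The 2 sets thus differed in direction for Hist2h2bb, and that difference was not tested.

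**Figure D5:**
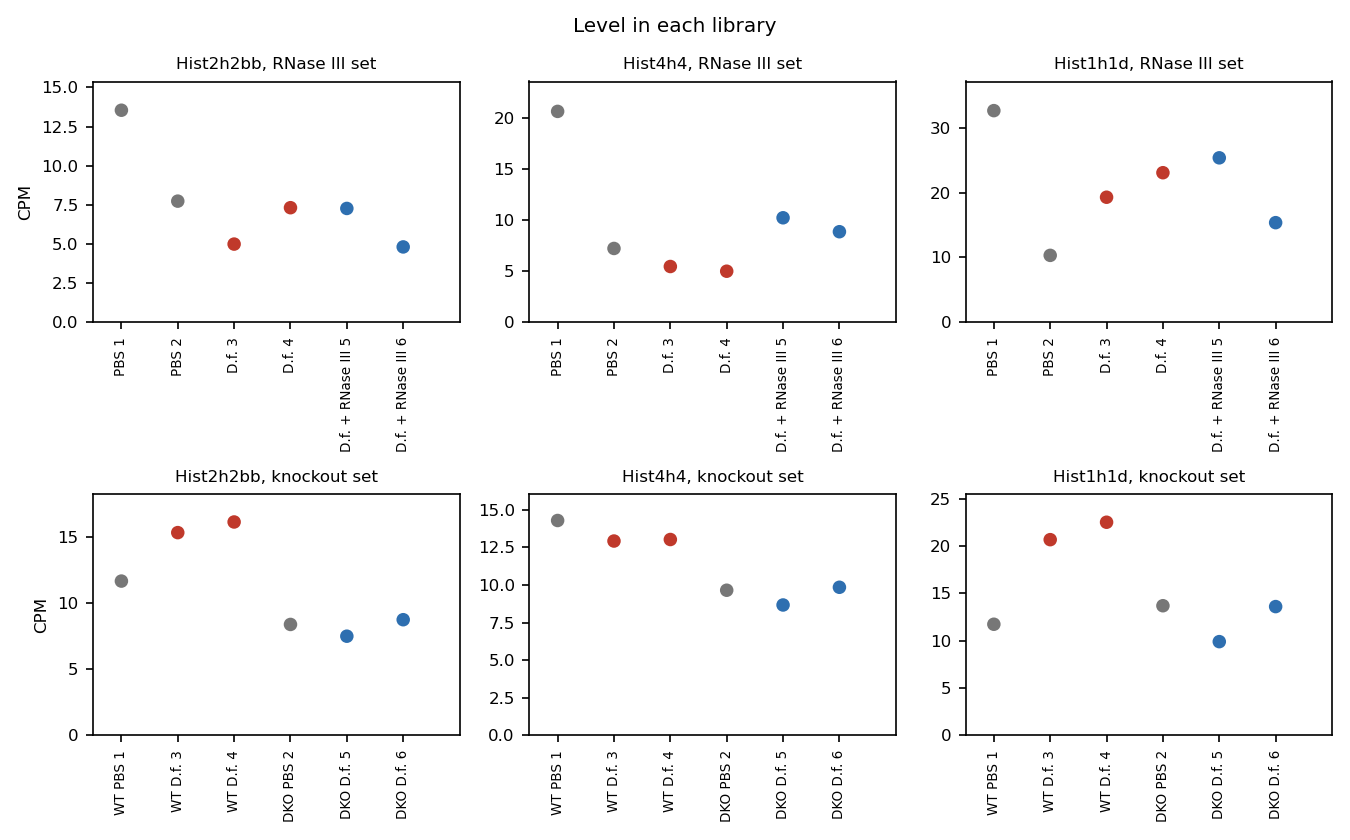
CPM (y, from 0) of Hist2h2bb, Hist4h4 and Hist1h1d in each library (x), each point 1 library, for the RNase III set (upper row) and the knockout set (lower row). Hist2h2bb is at 15.3 and 16.1 CPM in wild-type D.f. and at 7.50 and 8.75 CPM in knockout D.f., and Hist4h4 stands at 20.7 CPM in PBS library 1 of the RNase III set.

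With PBS, 45 of 52 histone genes were higher in the knockout library than in the wild-type library, with a median ratio of 1.27, as were 53.9% of all genes. This is 1 library against 1 and has no test. Mitosis genes were higher in 26 of 29 (median ratio 1.39) and DNA replication genes in 28 of 34 (1.11). Heart muscle markers were lower in 9 of 9 and neutrophil markers higher in 9 of 9. The summed heart muscle level was 822 CPM in the wild-type and 128 CPM in the knockout PBS library. The part of these markers in the histone levels was not tested.

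The difference between the genotypes in their response to D.f. extract had a median log2 value of −1.20 over the 52 genes, with 45 negative, against −0.01 for all genes, of which 51.4% were negative. It rests on the same 2 PBS libraries. No histone gene was called in edgeR (0.00654% of all genes were), 15 had an unadjusted p under 0.05, all lower, against 5.88% of all genes, and DESeq2 called none. Hist1h1d had −1.10 ± 0.32 with an edgeR adjusted p of 0.354, and Hist1h4d had −0.63 ± 0.18 with 0.351. Without knockout D.f. library 5, 8 were called lower (15.4%) against 6.93% of all genes, and without library 6, 10 (19.2%) against 4.998%.

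With the 7 wild-type libraries of both sets fitted together, with the set as a term, 42 of 56 histone genes had a positive response to D.f. extract and the median was 0.37, against −0.03 for all genes, of which 46.1% were positive. None was called in edgeR, against 14.7% of all genes. At an unadjusted p under 0.05 there were 4 higher and 2 lower, against 14.5% and 15.8% of all genes. DESeq2 called 1 higher (1.79%, against 10.2% of all genes) and 2 lower (3.57%, against 8.22%). The median was 0.84 without PBS library 1 of the RNase III set, when 18 of 55 genes were called higher (32.7%, against 9.15% of all genes), and 0.05 without the wild-type PBS library of the knockout set. Hist1h4h, at −0.59 ± 0.17, had an edgeR adjusted p of 0.0543.

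Genes that make, process and use histones were counted from lists chosen with earlier results known. In the list of 21 genes of histone mRNA transcription, 3′ processing and decay, only the cleavage factor gene Cpsf2 passed in the RNase III set, rising with D.f. extract from a mean of 47.7 CPM to 73.6 CPM (log2 fold change 0.63 ± 0.11, edgeR adjusted p 0.0133) and standing lower with RNase III (53.2 CPM, −0.47 ± 0.11, 0.0482). Cpsf2 is 4.76% of the list, against 6.51% of all genes called higher with D.f. and 4.85% called lower with RNase III. None of the 21 passed in the knockout set. Slbp, which binds the stem-loop, was at 16.7 and 11.5 CPM in PBS, 21.2 and 19.5 in D.f. and 19.7 and 17.3 in D.f. with RNase III. Its log2 fold change with D.f. was 0.53 ± 0.20 there, with an edgeR adjusted p of 0.152, and 0.53 ± 0.21 with 0.293 in wild type of the knockout set. Npat, the coactivator of histone transcription at the G1 to S transition, was at 25.0 to 38.4 CPM in libraries of the RNase III set and at 44.4 to 52.3 CPM in those of the knockout set. Its log2 fold changes lay between 0.04 and 0.19 in the 8 comparisons, and none passed the test.

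Of 11 replication-independent histone genes, H3f3b and H2afy (18.2%) rose with D.f. extract in the RNase III set, against 6.51% of all genes. None fell, against 4.50% of all genes. H3f3b, which encodes H3.3, was at 179 and 137 CPM in PBS, 278 and 270 in D.f. and 183 and 168 in D.f. with RNase III, with a log2 fold change of 0.80 ± 0.16 and an edgeR adjusted p of 0.0201. In the knockout set none of the 11 passed, and H3f3b was at 223 CPM in wild-type PBS, 294 and 262 in wild-type D.f., 173 in knockout PBS and 180 and 205 in knockout D.f. The D.f. libraries were the highest in wild type of both sets. Of 24 chaperone and assembly genes, Daxx, which deposits H3.3, rose in the RNase III set (31.5 to 196 CPM, log2 fold change 2.64 ± 0.31, edgeR adjusted p 0.00255) and in wild type of the knockout set (2.20 ± 0.21, 0.0268), and stood lower with RNase III than without it (−2.63 ± 0.31, 0.0036). Daxx alone of the 24 was called in each of these comparisons (4.17%). Of all genes, 6.51%, 1.38% and 4.85% were called in the same direction there. With D.f. extract Daxx and Chaf1b, a subunit of the replication-coupled assembly factor, were lower in the knockout, at −1.95 ± 0.16 (0.0116) and −1.37 ± 0.22 (0.0494). They are 8.33% of the 24 genes, against 2.01% of all genes called lower.

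Of 34 DNA replication genes tested, 3 (8.82%) rose with D.f. extract in the RNase III set, where 6.51% of all genes were called higher. In wild type of the knockout set 3 rose (8.82%, against 1.38%), and 2 were lower in the knockout with D.f. (5.88%, against 2.01%). The medians were 0.37, 1.01 and −0.77. The replicative helicase genes Mcm2 and Mcm6 were among the 3 in each set. Of 29 mitosis genes 0 were called in the RNase III set (median −0.14), 2 rose in wild type of the knockout set (median 1.36, 29 of 29 positive) and 3 were lower in the knockout with D.f. (median −0.68, 29 of 29). The 2 and 3 calls are 6.90% and 10.3% of the list, against 1.38% and 2.01% of all genes. The proliferation marker Mki67 was at 19.1 CPM in wild-type PBS, 54.0 and 62.9 in wild-type D.f., 34.9 in knockout PBS and 26.1 and 31.8 in knockout D.f. These values have the same order as the summed level of the low histone genes. In the RNase III set Mki67 was at 72.7 and 28.5 CPM in PBS, 39.0 and 44.6 in D.f. and 62.9 and 40.8 in D.f. with RNase III, again highest in PBS library 1 and lowest in PBS library 2. Whether dividing cells account for the histone levels was not tested.

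The sets also differed in level. Of 51 genes tested in each, 43 had the higher mean CPM in the RNase III set, with a median ratio of 1.74, while 41.9% of 14706 genes did so, with a median ratio of 0.953. The exceptions with the lowest ratios were Hist3h2a, with means of 9.76 and 23.0 CPM (RNase III and knockout set), and Hist2h2bb, at 7.61 and 11.3. The others were Hist2h3c1, Hist4h4, Hist2h3b, Hist1h1e, Hist1h1c and Hist1h3e. Because Hist3h2a overlaps Trim17 on the same strand, its count may depend on the annotation used. The sets were tabulated with different gene lists and hold different libraries, so set, annotation and library preparation cannot be told apart.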

How the data were processed

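Mouse lung RNA was sequenced in 12 libraries. TRIzol extraction, a TruSeq total RNA kit and single-end reads of 100 bases on an Illumina HiSeq were used, per the labels' protocols. Per the submitters' processing notes, reads were mapped to mm9 with TopHat 2.0.8b and counted with HTSeq, and bcl2fastq was used. For HTSeq, the version, annotation and strand setting were not given in the sources used here.

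Each deposited table holds the raw read counts per gene of 1 library. HTSeq's lines of unassigned reads were kept out, and assigned reads made up 23.1% to 28.2% of each table. Groups and replicate numbers came from the sample titles. Differences were tested with edgeR 4.0.16 in R 4.3.3 (TMM, filterByExpr, glmQLFit, glmQLFTest) within each set of 6 libraries, which left 3 (RNase III set) and 2 (knockout set) residual degrees of freedom. P-values were Benjamini-Hochberg adjusted over all genes tested, with 0.05 as the threshold. A group with 1 PBS library is assumed to vary like the others. Alternative fits without a library of a group of 2 had fewer residual degrees of freedom, so their counts of calls are less certain. The filter left 56 and 52 of the histone genes tested, so counts of changes cover only those. CPM were computed over TMM-scaled library sizes, log2 fold changes are given ± SE and lengths are exon lengths of GENCODE mouse release 1, which may not be the annotation counted. The procedure was run on simulated counts with known changes, drawn with the spread fitted to these same libraries. That run cannot show how the test behaves where libraries of a group differ beyond that spread.

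The genes and the gene lists were chosen with earlier results of these data known. Named were the 12 genes of highest mean CPM per set, the 3 highest of each class, called genes, genes listed in 1 set only, genes of smallest p in the other lists and fixed genes such as Slbp. Alternatives were DESeq2 1.42.0, RLE scaling, no low-count filter, only the groups compared, all 12 libraries in 1 fit, CPM without TMM scaling and leaving out each library.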

Additional observations from a re-analysis of the deposited data

How the results depend on the processing

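No paired analysis was possible because the groups of a set share no replicate number. With DESeq2 the numbers of genes called over the whole table became 48 for RNase III-treated extract against PBS, 1905 for RNase III-treated against untreated extract, 648 and 36 for D.f. against PBS in wild type and knockout of the knockout set, 736 for the knockout against the wild type under D.f. and 213 for the genotype difference. DESeq2 called 1 histone gene lower in D.f. against PBS of the RNase III set (1.79%, against 6.27% of all genes). It called 2 lower in the knockout with D.f. (3.85%, against 3.485%). Over both sets it called 1 higher (1.79%, against 10.2%) and 2 lower (3.57%, against 8.22%). With only the groups compared, the whole-table counts were 979 for D.f. against PBS within the RNase III set, 0 for RNase III-treated extract against PBS, 2869 against untreated extract and 3062 in wild type of the knockout set; 2 histone genes were called higher with RNase III against D.f., and 21 higher and 1 lower in wild type. With all 12 libraries in 1 fit, 391 genes were called in wild type of the knockout set and 7 for the genotype difference. In that fit 1 histone gene was called lower with D.f. in the RNase III set (1.79%, against 6.52% of all genes). In wild type of the knockout set 1 was called higher (1.79%, against 2.25%), and 0 were lower in the knockout with D.f. (against 2.30%). Over both sets 2 were called higher (3.57%, against 8.83%) and 1 lower (1.79%, against 7.195%). Without the low-count filter the median of the genotype difference was −1.01. Without TMM scaling the summed H4 level was 154 CPM in wild-type PBS and 166 and 167 CPM in wild-type D.f. RLE scaling moved none of the counts of calls by over 1.5 times and none of the medians by more than the spread between replicates. Except where a smaller fit changes the samples, the cause of these changes was not tested.

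Leaving out 1 library gave, over the whole table and for histone genes called higher and lower, 584 to 3071, 0 to 11 and 0 to 5 for D.f. against PBS within the RNase III set (median −0.34 to 0.72); 0 to 188, 0 and 0 for RNase III-treated extract against PBS (−0.30 to 0.71); and 146 to 2874, 0 to 2 and 0 against untreated extract (−0.22 to 0.22). The ranges were 0 to 3150, 0 to 21 and 0 to 2 for wild type of the knockout set (0.79 to 0.99), 0 to 2092, 0 and 0 to 2 for the knockout (−0.35 to −0.17), and 7 to 3048, 0 and 0 to 15 for the knockout against the wild type under D.f. (−0.95 to −0.46). They were 0 to 1666, 0 and 0 to 10 for the genotype difference (−1.34 to −0.96) and 1080 to 2428, 0 to 18 and 0 to 2 for both sets (0.049 to 0.84). Some calls of histone genes in these ranges have no share given above. Each was a smaller share than that of all genes called in the same fit and direction. Over both sets, without PBS library 2 of the RNase III set, 2 were called lower (3.57%, against 6.11% of all genes). The full fits within a set had 3 and 2 residual degrees of freedom, and fits without a library of a group of 2 had fewer. The counts of calls moved more than the medians of the knockout set, which kept their sign. Comparisons with a single PBS library in the knockout set could not be fitted without it. Their kept sign is therefore no check on that library.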

Other observations

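Outside the family, 3 protein-coding genes held an exact stem-loop pattern within 200 bases after the stop codon: H2afx, Btbd10 and 1700014N06Rik. They were named after the match was seen. H2afx encodes the variant H2A.X, whose gene is known to give both a stem-loop and a polyadenylated message. Its stem began 46 bases after the stop codon, inside the range of 21 to 55 bases seen in the family, while that of Btbd10 began 120 bases after it. H2afx was at 11.1 to 17.3 CPM in the RNase III set and at 11.0 to 16.9 CPM in the knockout set, above most of the family. 1700014N06Rik was at 0 CPM in all libraries.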
